A study of Mus musculus with 19 samples.

Results

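AMP-activated protein kinase (AMPK) was followed through the transcripts of its 7 subunit genes, Prkaa1, Prkaa2, Prkab1, Prkab2, Prkag1, Prkag2 and Prkag3, and of Stk11, which encodes its upstream kinase LKB1. The 8 genes were taken by symbol from the 30214 gene names on the array, and each was read by a single probe that was well above background on all 19 arrays, so that all 8 passed the filter on dim probes. The arrays measured RNA of quadriceps, a muscle made mostly of fast glycolytic fibers, from male congenic C57Bl6J mice killed at 180 days of age. AR113Q mice are a knock-in model of spinal and bulbar muscular atrophy (SBMA), in which the androgen receptor carries an expanded polyglutamine tract wherever the receptor is expressed, and control (CTR) mice were wild type. Feeding of either NCD, a normal chow, or HFD, rich in fat, began in both genotypes at 40 days of age. On NCD there were 5 CTR and 5 AR113Q samples, and on HFD there were 4 CTR and 5 AR113Q samples, with 1 array each. The labels do not say whether each sample was a separate mouse, and the p-values therefore measure the spread between these samples, which may in part be technical.

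AMPK is a heterotrimer of a catalytic α, a scaffolding β and a nucleotide-binding γ subunit, and it is switched on when AMP and ADP rise relative to ATP and when LKB1 phosphorylates the α subunit. Active AMPK favors fuel oxidation and glucose uptake over the synthesis of fat, glycogen and protein. In skeletal muscle, α2 and β2 are the prevailing isoforms, and γ3 is largely restricted to fast glycolytic fibers, whereas α1, β1 and γ1 are found in most tissues.

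Levels are log2 signals from which the array's 75th percentile was subtracted, and a level of 0 therefore stands for that percentile. They compare arrays for the same probe and do not rank one gene against another. A difference was called at an adjusted p under 0.05 in limma, a linear model fitted to all 32026 probes that passed the filter, with Benjamini-Hochberg adjustment over all of them. Between 67.1% and 80.1% of the probes of an array were well above background, with the lowest share in a CTR-HFD array. The fiber markers Acta1, Ckm, Des, Ttn and Mb were well above background on all 19 arrays. Because whole muscle was assayed, fewer fibers of a type and less RNA per fiber cannot be told apart.

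On NCD, 5 of the 8 AMPK genes differed between genotypes, with Prkaa1 higher and Prkaa2, Prkab2, Prkag3 and Stk11 lower in AR113Q muscle. In this comparison, 8.29% of all probes tested were called higher and 9.28% lower. These shares include probes that, unlike the 8 genes, were not well above background on every array. In a fit to only the 24994 probes well above background on all 19 arrays, 2865 were called higher and 3236 lower. The median log2 fold change of the 8 genes was -0.18, against -0.05 over all probes tested. On HFD, the same 5 genes were called again in the same direction and Prkag2 was called higher, which made 6 of 8, against 8.0% of all probes called higher and 9.93% lower. Of the 24994 brighter probes, 2622 were called higher and 3508 lower on HFD in their own fit. That fit called 5 of the 8 genes on NCD and 6 on HFD. The median of the 8 genes was again -0.18, against -0.07 over all probes. With median centring of each array, the calls were 1 higher and 2 lower on NCD and 1 higher and 1 lower on HFD, and with normexp background correction they were 1 higher and 1 lower on each diet. With quantile normalization they were 1 higher and 4 lower on NCD and 2 higher and 1 lower on HFD. Calls over all 32026 probes changed too, from 2654 higher and 2971 lower on NCD and 2562 and 3179 on HFD. With median centring they were 1337 and 1051 on NCD and 1496 and 958 on HFD. With normexp they were 414 and 404 on NCD and 382 and 551 on HFD. With quantile normalization they were 3134 and 2698 on NCD and 3287 and 2512 on HFD.

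**Figure D1:**
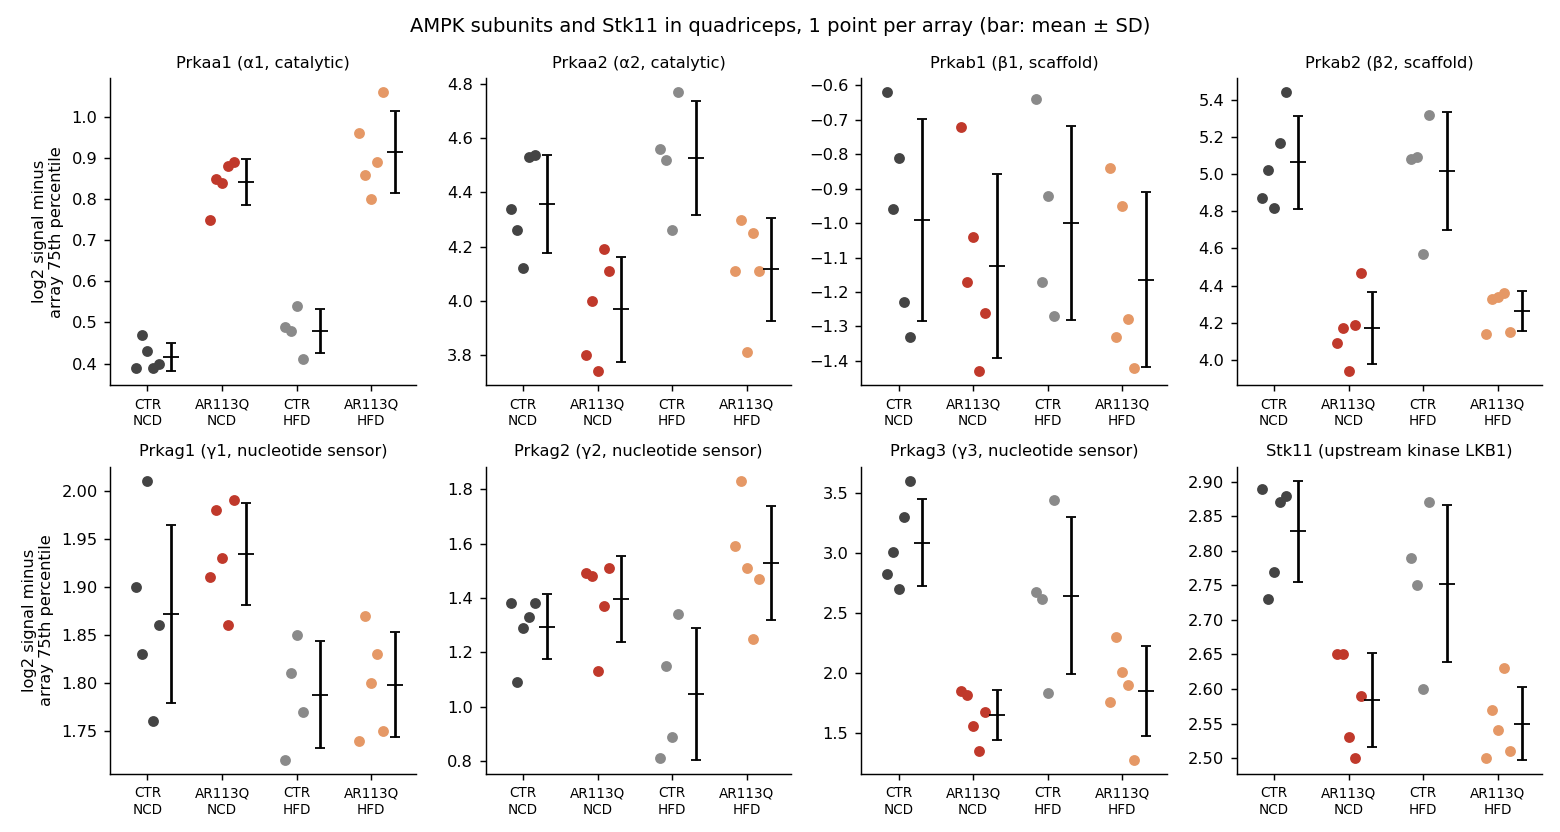
Log2 signal minus the 75th percentile of the array for each AMPK gene (vertical axes differ between panels), with 1 point per array in the 4 groups and a bar for the mean ± SD beside them. Prkaa1 was higher and Prkab2 lower in every AR113Q array than in every CTR array on the same diet, whereas Prkab1 and Prkag1 overlapped between genotypes.

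The promoters of the catalytic pair and of the β and γ subunits that fell most are shown here because these transcripts moved in opposite directions. All 8 genes matched RefSeq's promoter table (GRCm38.p6), with 1 window each except Prkag2, which had 3 start sites. The windows below hold the 250 bases before the annotated start, written 5′ to 3′ on the gene's own strand, with CG dinucleotides in capitals. They lie at chr15:5143611-5143860 on the plus strand for Prkaa1, chr4:105109899-105110148 on the minus strand for Prkaa2, chr3:97657962-97658211 on the plus strand for Prkab2 and chr1:74748956-74749205 on the minus strand for Prkag3.
Prkaa1: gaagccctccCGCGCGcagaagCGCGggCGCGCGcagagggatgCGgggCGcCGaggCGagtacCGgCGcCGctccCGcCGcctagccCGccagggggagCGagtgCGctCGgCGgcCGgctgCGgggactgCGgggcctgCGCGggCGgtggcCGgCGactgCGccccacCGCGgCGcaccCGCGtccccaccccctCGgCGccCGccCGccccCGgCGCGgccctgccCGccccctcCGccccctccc
Prkaa2: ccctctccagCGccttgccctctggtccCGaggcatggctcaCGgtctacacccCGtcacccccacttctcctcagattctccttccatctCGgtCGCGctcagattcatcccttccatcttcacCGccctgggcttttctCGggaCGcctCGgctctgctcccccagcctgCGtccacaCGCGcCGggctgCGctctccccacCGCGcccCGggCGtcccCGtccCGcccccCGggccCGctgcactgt
Prkab2: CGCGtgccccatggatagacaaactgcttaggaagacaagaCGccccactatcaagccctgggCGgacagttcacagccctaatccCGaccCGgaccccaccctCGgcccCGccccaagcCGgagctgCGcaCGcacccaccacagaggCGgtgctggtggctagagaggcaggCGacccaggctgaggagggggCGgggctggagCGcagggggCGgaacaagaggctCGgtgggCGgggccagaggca
Prkag3: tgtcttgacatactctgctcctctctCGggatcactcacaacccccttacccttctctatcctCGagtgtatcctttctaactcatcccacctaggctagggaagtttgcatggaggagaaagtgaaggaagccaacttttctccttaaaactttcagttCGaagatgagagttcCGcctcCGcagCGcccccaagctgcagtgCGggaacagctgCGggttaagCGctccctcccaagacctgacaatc
The Prkaa1 window held 45 CG dinucleotides at 85.2% G and C, and 99.7% of the 32851 promoter windows in the table held as few or fewer. Prkaa2 held 24 at 70.0% G and C and Prkab2 held 18 at 69.2%. Prkag3 held 9 CG dinucleotides at 52.4% G and C, close to the median of 6 over all windows. The E-box CANNTG, a palindrome bound by myogenic factors, was in 6 of the 10 windows of the 8 genes, against 66.2% of all windows. It occurred once in the Prkag3 window and not in the other 3 shown, and it was also in the windows of Prkag1, Prkag2 and Stk11. The androgen receptor half-site AGAACA, searched on both strands, was found in 1 of the 10 windows of the 8 genes, that of Prkag1, against 16.1% of all windows. The MEF2 consensus, searched on both strands, was in 0 of the 10 windows, against 2.9% of all windows.

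The catalytic isoforms moved in opposite directions in AR113Q muscle. Prkaa1 encodes α1, and its probe lies at chr15:5131426-5131485 (mm9). Its level was 0.39, 0.47, 0.43, 0.39 and 0.40 in CTR-NCD and 0.75, 0.85, 0.84, 0.88 and 0.89 in AR113Q-NCD arrays, with replicates 1 to 5 in order here and in the lists that follow. Every AR113Q-NCD array was above every CTR-NCD array. The rise was 0.43 on the log2 scale (SE 0.05), or 1.34-fold, with an adjusted p of 4.59e-05 in limma. On HFD, Prkaa1 was 0.49, 0.48, 0.54 and 0.41 in CTR and 0.96, 0.86, 0.80, 0.89 and 1.06 in AR113Q arrays, again without overlap. The HFD rise was also 0.43 (SE 0.06, adjusted p 6.47e-05 in limma). The exact 2-sided permutation p was 0.00794 on each diet, the smallest that either design allows, which restates that the groups did not overlap. It was 0.0423 after Benjamini-Hochberg adjustment over the permutation tests of the 8 genes. The share of all probes whose groups did not overlap is not given here, so the lack of overlap is not a mark of these genes. Leaving out any of the 19 arrays kept both calls.

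Prkaa2 encodes α2, the main catalytic isoform of muscle, with its probe at chr4:104707708-104707767 (mm9). Its level was 4.34, 4.26, 4.12, 4.53 and 4.54 in CTR-NCD and 3.80, 4.0, 3.74, 4.19 and 4.11 in AR113Q-NCD arrays. Only AR113Q-NCD replicate 4 exceeded a CTR-NCD array, replicate 3. Prkaa2 fell by 0.39 on the log2 scale (SE 0.12, adjusted p 0.0348 in limma). On HFD, it was 4.56, 4.52, 4.26 and 4.77 in CTR and 4.11, 4.30, 3.81, 4.25 and 4.11 in AR113Q arrays, with AR113Q-HFD replicate 2 just above CTR-HFD replicate 3. That fall was 0.41 (SE 0.13, adjusted p 0.0346 in limma). Both Prkaa2 calls were fragile, since the NCD call was lost without CTR-NCD replicate 1, 4 or 5 or AR113Q-NCD replicate 1, 2 or 3 (adjusted p 0.0569 to 0.0977 in limma). The HFD call was lost without CTR-HFD replicate 1, 2 or 4 or AR113Q-HFD replicate 1, 3 or 5 (adjusted p 0.0593 to 0.122 in limma). With median centring neither call was made (adjusted p 0.252 on NCD and 0.259 on HFD in limma). With the slide that arrays shared as a block both were made (adjusted p 0.00117 on NCD and 0.000578 on HFD in limma). Of the 11 other settings, 8 kept the NCD call and 7 the HFD call.

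Of the scaffold subunits, β2 was lower in AR113Q muscle and β1 was not called. Prkab2, which encodes β2, was read by a probe at chr3:97476843-97476902 (mm9). Its level was 4.87, 5.02, 4.82, 5.17 and 5.44 in CTR-NCD and 4.09, 4.17, 3.94, 4.19 and 4.47 in AR113Q-NCD arrays. All AR113Q-NCD arrays were below all CTR-NCD arrays. The change was -0.89 on the log2 scale (SE 0.14), or 0.538-fold, with an adjusted p of 0.000254 in limma. On HFD, Prkab2 was 5.08, 5.09, 4.57 and 5.32 in CTR and 4.14, 4.33, 4.34, 4.36 and 4.15 in AR113Q arrays. The groups again did not overlap, although CTR-HFD replicate 3 was the lowest array of its group. The HFD change was -0.75 (SE 0.15), or 0.594-fold, with an adjusted p of 0.0017 in limma. Both calls held without any single array. With normexp background correction, an alternative setting that removes local background, the NCD change was -0.58 while the median of all probes shifted to -0.55. The adjusted p of that change was 0.106 in limma, against a range of 5.85e-05 to 0.106 over the 11 other settings.

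Prkab1, which encodes β1, was read at chr5:116464650-116464709 (mm9). Its level was -0.62, -0.96, -0.81, -1.23 and -1.33 in CTR-NCD and -0.72, -1.17, -1.04, -1.43 and -1.26 in AR113Q-NCD arrays. On HFD, it was -0.64, -1.17, -0.92 and -1.27 in CTR and -0.84, -1.33, -0.95, -1.28 and -1.42 in AR113Q arrays. These values followed the slide that arrays shared more closely than the genotype, with -0.84 to -0.62 on slide 1, -1.33 to -0.96 on slide 2, -1.04 to -0.81 on slide 3, -1.43 to -1.23 on slide 4 and -1.42 to -1.26 on slide 5. The log2 fold change was -0.13 on NCD (95% interval -0.49 to 0.22) and -0.16 on HFD (-0.54 to 0.22), with adjusted p-values of 0.677 and 0.613 in limma. With the slide as a block they were -0.13 and -0.11 (adjusted p 0.132 and 0.248 in limma).

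Among the nucleotide-sensing subunits, γ3 showed the largest difference of the 8 genes. Prkag3, which encodes γ3, was read at chr1:74787214-74787273 (mm9). On NCD, its level was 2.83, 3.01, 2.70, 3.30 and 3.6 in CTR and 1.85, 1.82, 1.56, 1.35 and 1.68 in AR113Q arrays. The highest AR113Q-NCD array lay below the lowest CTR-NCD array. The change was -1.43 on the log2 scale (SE 0.25), or 0.37-fold, with an adjusted p of 0.000682 in limma, and 0.484% of all probes tested had a change as low. On HFD, Prkag3 was 2.68, 2.62, 1.84 and 3.44 in CTR and 1.76, 2.30, 2.01, 1.90 and 1.28 in AR113Q arrays. CTR-HFD replicate 3 lay below AR113Q-HFD replicates 2, 3 and 4, and the SD among CTR-HFD arrays was 0.65, against 0.36 in CTR-NCD. The HFD change was -0.80 (SE 0.26), or 0.576-fold, with an adjusted p of 0.0464 in limma and an unadjusted exact permutation p of 0.0635. The NCD call held without any single array. The HFD call was lost in 15 of the 19 fits that each left out 1 array (adjusted p 0.0504 to 0.173 in limma), its change being -0.53 without CTR-HFD replicate 4 and -1.06 without CTR-HFD replicate 3. Over the 11 other settings the HFD adjusted p ran from 0.0208 to 0.158 in limma, and 5 of them kept the call.

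Prkag2 encodes γ2, a subunit prominent in heart, and was read at chr5:24368591-24368650 (mm9). Its level was 1.38, 1.09, 1.29, 1.33 and 1.38 in CTR-NCD and 1.49, 1.48, 1.13, 1.37 and 1.51 in AR113Q-NCD arrays, which overlapped. The NCD difference was 0.10 (SE 0.12, adjusted p 0.634 in limma). On HFD, the levels were 0.81, 1.15, 0.89 and 1.34 in CTR and 1.59, 1.83, 1.51, 1.25 and 1.47 in AR113Q arrays. Only AR113Q-HFD replicate 4 fell within the CTR-HFD range. Prkag2 was 0.48 higher on the log2 scale in AR113Q-HFD (SE 0.12), or 1.39-fold, with an adjusted p of 0.0121 in limma, which became 0.0501 without CTR-HFD replicate 1 and ran from 0.00574 to 0.184 over the 11 other settings. The difference between the genotype effects on the 2 diets was 0.38 (95% interval 0.01 to 0.74) with an unadjusted p of 0.0428 and an adjusted p of 1 in limma, so that the test of a different Prkag2 effect on the 2 diets did not pass the threshold.

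Prkag1, which encodes the ubiquitous γ1, was spotted 10 times on each array at chr15:98643402-98643461 (mm9), and the SD among these spots within an array was 0.027 to 0.064. Its level was 1.90, 1.83, 2.01, 1.76 and 1.86 in CTR-NCD and 1.91, 1.98, 1.93, 1.86 and 1.99 in AR113Q-NCD arrays. On HFD, it was 1.72, 1.81, 1.85 and 1.77 in CTR and 1.74, 1.87, 1.80, 1.83 and 1.75 in AR113Q arrays. Genotypes overlapped on both diets, and the log2 fold change was 0.06 on NCD (95% interval -0.05 to 0.18, adjusted p 0.499 in limma) and 0.01 on HFD (-0.11 to 0.13, adjusted p 0.919 in limma). These intervals, which hold for the main scaling of the arrays, leave room only for small genotype differences in Prkag1. With normexp background correction the NCD change was 0.26 (adjusted p 0.146 in limma), above that interval, while the median of all probes was -0.55.

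Stk11 encodes LKB1, the main kinase that phosphorylates AMPK in muscle, and its probe lies at chr10:79590785-79590844 (mm9). Its level was 2.89, 2.73, 2.77, 2.87 and 2.88 in CTR-NCD and 2.65, 2.65, 2.53, 2.50 and 2.59 in AR113Q-NCD arrays, all of which lay below the CTR-NCD arrays. Stk11 fell by 0.24 on the log2 scale (SE 0.06), to 0.845-fold, with an adjusted p of 0.00835 in limma. On HFD, Stk11 was at 2.79, 2.75, 2.60 and 2.87 in CTR and 2.50, 2.57, 2.54, 2.63 and 2.51 in AR113Q arrays, with AR113Q-HFD replicate 4 just above CTR-HFD replicate 3. That fall was 0.20 (SE 0.06), to 0.87-fold, with an adjusted p of 0.0343 in limma. The NCD change was -0.19 with median centring (adjusted p 0.385 in limma) and 0.02 with normexp (adjusted p 0.921 in limma), in a range of adjusted p from 0.00372 to 0.921 over the 11 other settings. On HFD, the call was lost without CTR-HFD replicate 1, 2 or 4 or AR113Q-HFD replicate 1, 2, 3 or 5 (adjusted p 0.0509 to 0.118 in limma), and 5 of the 11 other settings kept it.

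**Figure D2:**
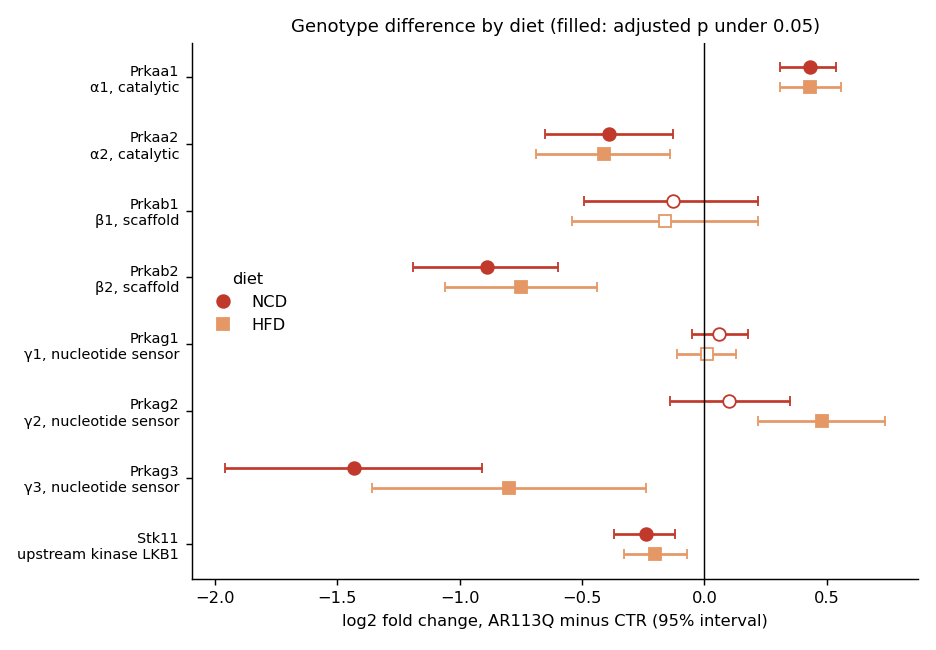
Log2 fold change of each AMPK gene, AR113Q minus CTR, on NCD (circles) and HFD (squares) with 95% intervals from limma, filled where the adjusted p was under 0.05. Prkaa1 stands at 0.43 on both diets, Prkag3 at -1.43 on NCD and -0.80 on HFD, and the intervals of Prkab1 and Prkag1 include 0.

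Per the file headers the arrays lay on 5 slides, with replicates 1 to 5 on slides 1 to 5 except CTR-HFD replicate 4, which lay on slide 5, so that genotypes could be compared within a slide. On NCD, the AR113Q array was above the CTR array of its slide by 0.35 to 0.50 for Prkaa1 and below it on 5 of 5 slides for Prkaa2, Prkab2, Prkag3 and Stk11. For Prkab2, the 5 differences were between -0.98 and -0.78. Prkag3 differed by -0.98, -1.18 and -1.14 on slides 1 to 3 and by -1.95 and -1.92 on slides 4 and 5, so its fall was present on each slide but uneven in size. On HFD, where 4 slides held both genotypes, Prkag3 differed by -0.92, -0.32, 0.17 and -2.16 on slides 1, 2, 3 and 5. Prkag2 was higher in AR113Q on each of these slides, by 0.13 to 0.78, and Prkab2 was lower by 0.23 to 1.17. With the slide as a block in limma, the NCD adjusted p was 0.000206 for Prkaa1, 0.00117 for Prkaa2, 0.000109 for Prkab2, 0.00141 for Prkag3 and 0.00709 for Stk11. The corresponding HFD values were 0.00026, 0.000578, 0.000436, 0.0473 and 0.0238, and 0.00879 for Prkag2. Calls over all 32026 probes also rose with the slide block, from 5625 to 7856 on NCD and from 5741 to 8960 on HFD.

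**Figure D3:**
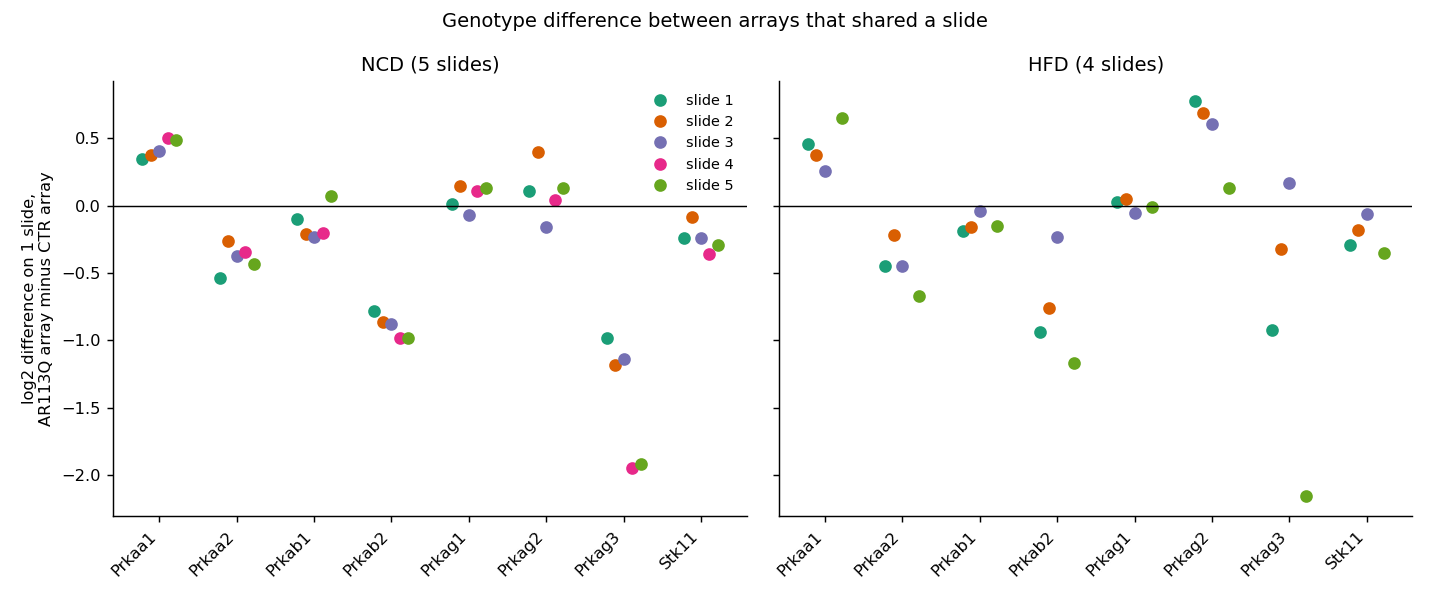
Difference in log2 signal between the AR113Q array and the CTR array of the same slide for each AMPK gene, on NCD (left, 5 slides) and HFD (right, 4 slides), with 1 point per slide. The differences of Prkab2 on NCD lie between -0.98 and -0.78, whereas those of Prkag3 on HFD run from -2.16 to 0.17.

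Diet alone changed no AMPK transcript past the threshold. Between AR113Q-HFD and AR113Q-NCD, 0 of 8 genes were called in limma, against 0.0250% of all probes tested, and 1 gene had an unadjusted p under 0.05. That gene was Prkag1, which was lower by 0.03 to 0.24 on HFD on all 5 slides, a mean change of -0.14 (95% interval -0.25 to -0.02, unadjusted p 0.0216, adjusted p 0.651 in limma). Between CTR-HFD and CTR-NCD, 0 of 8 genes were called, as were 0% of all probes, and 0 genes had an unadjusted p under 0.05 in limma. Prkag3 had the largest shift there, lower on HFD on all 4 slides that held both groups by 0.15 to 0.86, with a mean change of -0.44 and an interval of -1.0 to 0.12. For the genotype by diet interaction, 0 of 8 genes and 0% of all probes were called in limma, and Prkag2 was the 1 gene with an unadjusted p under 0.05. The interaction estimate of Prkag3 was 0.64 with an interval of -0.13 to 1.41 (unadjusted p 0.0979, adjusted p 1 in limma), which spans no difference between the diets and a fall on NCD more than 1 log2 unit deeper than on HFD.

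Because γ3 marks fast glycolytic fibers, the AMPK genes were set beside lists of fiber type markers. Of 8 fast glycolytic markers, 7 were lower in AR113Q on NCD and 8 on HFD, where 9.28% and 9.93% of all probes were called lower. The fall was not limited to that list, since 3 of 5 general markers of skeletal muscle fibers were also lower on both diets, Acta1 by 0.39 on NCD and 0.49 on HFD, Ckm by 0.70 and 0.72, and Ttn by 0.25 and 0.36, while Des was called higher on HFD at 0.32. The mean log2 level of the general list was 7.86 to 8.20 in CTR and 7.70 to 7.91 in AR113Q arrays on NCD, and 7.83 to 8.16 and 7.47 to 7.84 on HFD, with slight overlap. Actn3, which encodes a fast Z-disc protein, changed by -0.82 on NCD (adjusted p 2.4e-05 in limma) and Myh4, the fast myosin IIb heavy chain, by -0.33 (adjusted p 0.0071 in limma). The mean log2 level of the fast list was 8.17 to 8.41 over all CTR arrays and 7.69 to 7.95 over all AR113Q arrays, with no overlap. Prkag3 fell by more than any gene of the fast list on NCD, and its log2 change was -1.43 where theirs were -0.82 to -0.25. On HFD the Prkag3 change was -0.80, close to that of Actn3, whose mean level was 8.72 in CTR and 7.95 in AR113Q.

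For the 7 slow oxidative markers, such as Myh7 and Tnni1, 0 were called on either diet in limma. With 8.29% of all probes called higher on NCD and 8.0% on HFD, 0 of 7 is near the share over all probes. The median log2 fold change of these markers was 2.32 on NCD and 1.13 on HFD. Their mean level varied widely within groups, from 0.35 to 4.71 in CTR-NCD and from -1.39 to 4.95 in CTR-HFD arrays. In AR113Q muscle it ran from 4.54 to 5.67 on NCD and from -0.01 to 4.29 on HFD. CTR-HFD replicate 3, the CTR array with the lowest Prkag3 (1.84) and the lowest Prkab2 (4.57), had the highest slow marker level of all CTR arrays, 4.95. CTR-HFD replicate 4, with the lowest slow marker level (-1.39), had a Prkag3 level of 3.44, the highest of its group. Other CTR arrays followed this order in part. CTR-NCD replicates 4 and 5, at slow marker levels of 0.35 and 1.98, had Prkag3 at 3.3 and 3.6. Their Prkab2 levels were 5.17 and 5.44. CTR-NCD replicates 1 and 3, at slow marker levels of 2.58 and 3.53, had lower Prkag3 (2.83 and 2.7) and Prkab2 (4.87 and 4.82). CTR-NCD replicate 2 departed from the order, with Prkag3 at 3.01 and Prkab2 at 5.02 at a slow marker level of 4.71. So did CTR-HFD replicate 2, with Prkag3 at 2.62 at a slow marker level of -0.34. CTR-HFD replicate 1 had Prkag3 at 2.68 at a slow marker level of 1.29. Prkaa1 was 0.54 in CTR-HFD replicate 3 and 0.41 in replicate 4, the highest and lowest of their group. Both lay below every AR113Q array. The part of fiber type in the AMPK differences was not tested.

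Few markers of other cells were called, but in lists this short 0 or 1 call is near the share over all probes. That share was 8.29% higher and 9.28% lower on NCD, and 8.0% higher and 9.93% lower on HFD. Among 6 white adipocyte, 4 red blood cell, 5 macrophage and 5 endothelial markers, 0 were called between genotypes on either diet, while 1 of 5 Schwann cell markers, S100b, was called higher on NCD and 1 of 5 fibroblast markers, Lum, on each diet. The mean white adipocyte level was 1.21 to 2.88 in CTR and 1.64 to 2.76 in AR113Q arrays on NCD. On HFD it was 1.15 to 2.73 in CTR and 0.85 to 2.65 in AR113Q arrays, so the genotypes overlapped on both diets.

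**Figure D4:**
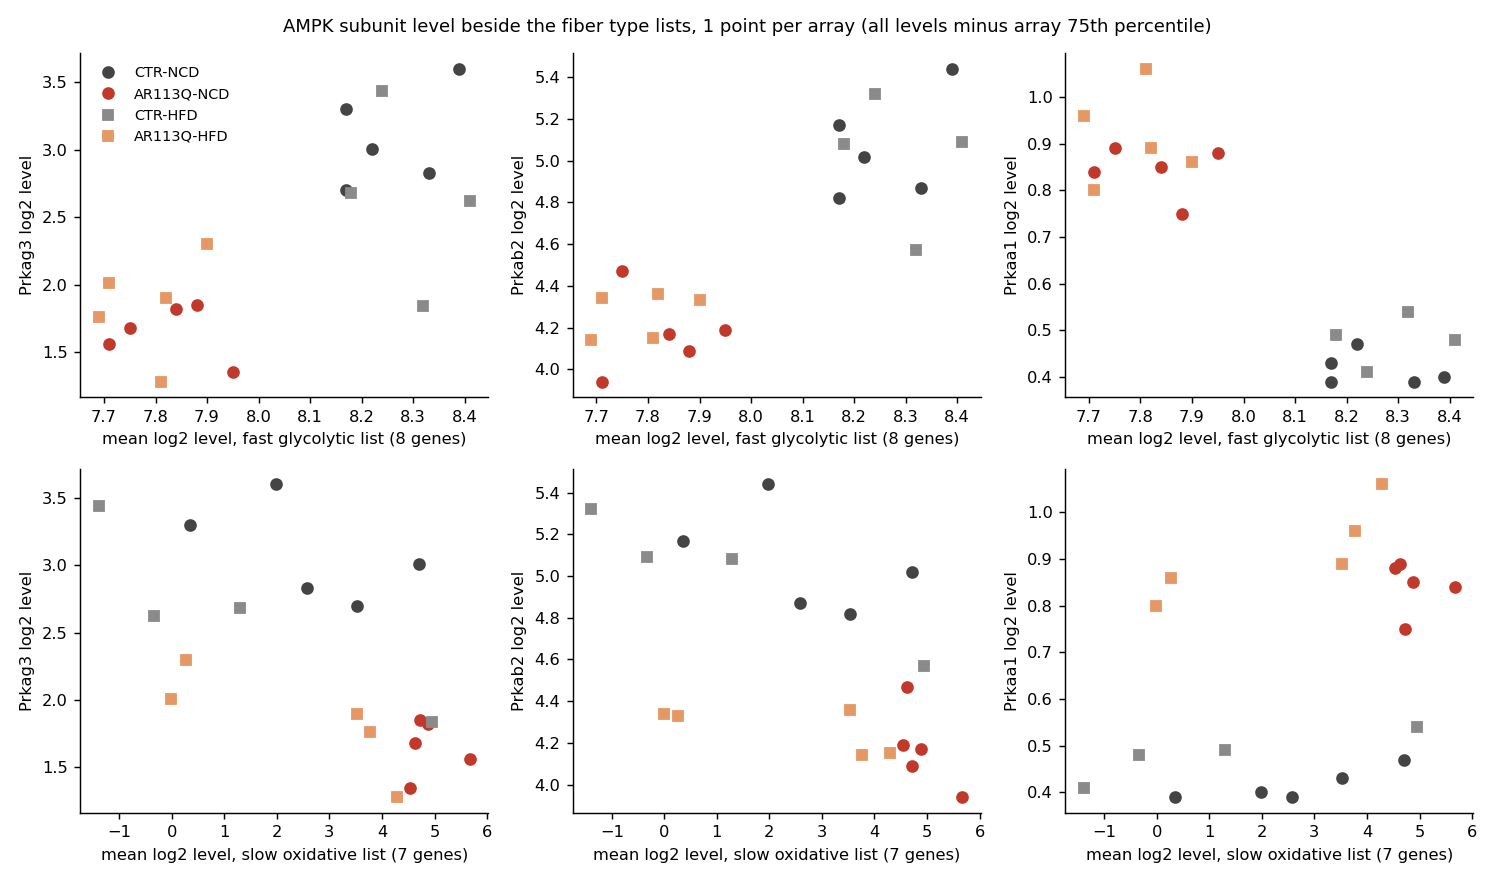
Log2 level of Prkag3, Prkab2 and Prkaa1 (vertical) against the mean log2 level of 8 fast glycolytic markers (top) or 7 slow oxidative markers (bottom), with 1 point per array (circles NCD, squares HFD, dark or grey CTR, red or orange AR113Q). The fast list separates the genotypes at 7.69 to 7.95 against 8.17 to 8.41, and the CTR-HFD array at a slow list level of 4.95 has a Prkag3 level of 1.84. The CTR-NCD array at a slow list level of 4.71 has a Prkag3 level of 3.01.

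The genes whose profile over the 19 arrays was nearest to that of Prkaa1 and of Prkab2, the members with the lowest adjusted p on NCD, were found by the root mean square difference of values centred on each probe's own mean, over 32026 probes. For Prkaa1, whose own root mean square about its mean was 0.23, Gpn2, Copb1, Plekhm2, Hars2 and Tcf4 were nearest, each at 0.07. Their log2 fold changes on NCD were 0.38, 0.31, 0.45, 0.45 and 0.36. For Prkab2, with a root mean square of 0.46, Atl2 and Rab2a were nearest at 0.10, followed by Bace1, Nt5dc3 and Rbfox1 at 0.11. Their NCD changes were -0.84, -0.72, -0.84, -0.73 and -0.84.

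Around AMPK, 56 genes of 4 pathway lists were tested, each through its brightest probe. Of these, 9 were called higher and 9 lower in AR113Q on NCD, and 7 higher and 15 lower on HFD, with 5 higher and 9 lower on both diets. Over all probes, 8.29% were called higher and 9.28% lower on NCD, and 8.0% higher and 9.93% lower on HFD, so that the 7 genes called higher on HFD were a share of the 56 not far from that of all probes. All probes include dim ones. In the fit to the 24994 probes well above background on all arrays, 2865 were higher and 3236 lower on NCD, and 2622 and 3508 on HFD. Pathway calls there were 10 higher and 11 lower on NCD and 8 and 15 on HFD. The HFD split was 10 higher and 12 lower with quantile normalization, 4 higher and 5 lower with median centring, and 8 higher and 9 lower with the authors' normalized values. Over all probes the HFD split was 2562 higher and 3179 lower in the main fit. It was 3287 and 2512 with quantile normalization, 1496 and 958 with median centring, and 2509 and 1890 with the authors' values.

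Among 13 upstream regulators, 2 were higher and 2 lower on NCD, and 1 was higher and 5 lower on HFD, with a median log2 fold change of -0.07 and -0.24. The count of 1 higher on HFD was near the share over all probes (8.0%). Lower on both diets were Stradb, a pseudokinase partner of LKB1, by 0.45 on NCD and 0.48 on HFD (adjusted p 0.00085 and 0.000708 in limma), and Cab39l, which encodes a scaffold of the LKB1 complex, by 0.31 and 0.35. A 2nd probe of Stradb changed by -0.36 on NCD and -0.16 on HFD (adjusted p 0.0128 and 0.322 in limma). Sesn3, which encodes a stress-induced sestrin, was higher on both, by 0.79 and 0.87. Sesn1, another sestrin, was higher by 0.55 on NCD (adjusted p 0.000954 in limma) and by 0.20 on HFD (adjusted p 0.237 in limma). Flcn, which encodes folliculin, and Cab39, another scaffold of the LKB1 complex, were called lower on HFD, at -0.41 and -0.27. A 2nd Flcn probe was called on both diets, at -0.30 and -0.40, and a 3rd on neither, at -0.29 and 0.11. The other Cab39 probe was not called on HFD, at -0.23 (adjusted p 0.127 in limma), and of the 2 other Cab39l probes 1 was not called on NCD, at -0.16 (adjusted p 0.112 in limma).

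Stk11 also phosphorylates 12 kinases related to AMPK, of which 1 was higher and 1 lower on NCD, and 3 were higher and 1 lower on HFD, with a median of 0.15 and -0.03. The NCD counts, 1 of 12 in each direction, were at the shares over all probes (8.29% and 9.28%). Sik2, a salt-inducible kinase, was lower by 0.39 and 0.46 (adjusted p 0.0381 and 0.0222 in limma). Mark4, a microtubule affinity-regulating kinase, was higher by 0.18 and 0.23, but its other probe was at -0.20 and 0.02 and was not called. Brsk1 was higher by 0.59 on HFD and differed by 0.35 on NCD (adjusted p 0.13 in limma), whereas its other probe was called on both diets, at 0.45 on NCD and 0.54 on HFD (adjusted p 0.0381 and 0.0211 in limma). Nuak1 was called higher on HFD, at 0.58.

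Of 18 genes encoding AMPK substrates, 4 were higher and 2 lower on NCD, and 1 was higher and 3 lower on HFD, with a median of 0.22 and 0.01. The HFD counts were not far from the shares over all probes (8.0% higher and 9.93% lower). Pfkfb3, which makes the glycolytic activator fructose 2,6-bisphosphate, showed the largest change of all 4 lists. Its mean log2 level was 5.38 ± 0.50 (SD, n = 5) in CTR-NCD and 2.42 ± 0.22 (SD, n = 5) in AR113Q-NCD, a change of -2.95, or 0.129-fold (adjusted p 4.27e-06 in limma). On HFD the change was -3.03, and a 2nd probe gave -3.23 and -3.31. Crtc2, a coactivator of CREB, was lower by 0.21 and 0.47, and Rptor, the mTORC1 subunit raptor, was higher by 0.30 on each diet. Acaca, the acetyl-CoA carboxylase of fatty acid synthesis, was higher by 0.82 on NCD (adjusted p 0.0106 in limma) and differed by 0.02 on HFD. Of its 3 other probes, 1 was called on NCD at 0.83, and the other two were not, at 0.52 and 0.56 (adjusted p 0.248 and 0.181 in limma), with 1 of them at -0.76 on HFD (adjusted p 0.0761 in limma). Between AR113Q-HFD and AR113Q-NCD the Acaca probe used changed by -1.41 (adjusted p 0.0267 in limma), the 1 pathway gene called for diet. Acacb, its mitochondrial counterpart, and Hdac5, a class IIa deacetylase, were called higher on NCD at 0.28 and 0.26, and Ulk1, the autophagy kinase, was called lower on HFD at -0.52. The other Acacb probe was not called on NCD, at 0.19 (adjusted p 0.321 in limma). The Foxo3 probe used changed by -0.02 and 0.00, whereas a dimmer one changed by 1.15 and 1.08, and for Eef2k a dimmer probe changed by -0.87 and -0.66 against -0.12 and -0.03 for the one used, so the call for these substrates, singled out after their values were seen, depended on the probe.

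Of 13 enzymes that set the AMP level, 2 were higher and 4 lower on NCD, and 2 were higher and 6 lower on HFD, with a median of -0.17 and -0.15. Ampd1, the AMP deaminase of muscle fibers, had a mean log2 level of 6.62 ± 0.20 (SD, n = 5) in CTR-NCD and 5.33 ± 0.14 (SD, n = 5) in AR113Q-NCD, a change of -1.29, or 0.409-fold (adjusted p 7.27e-06 in limma). Its HFD change was -1.19. Ak1, the cytosolic adenylate kinase of muscle, fell by 0.41 and 0.53, Adssl1, the muscle adenylosuccinate synthase, by 0.48 and 0.57, and Ckm, muscle creatine kinase, by 0.70 and 0.72. In the other direction, Ak4, a mitochondrial adenylate kinase, rose by 1.65 and 1.29 (adjusted p 0.0006 and 0.00594 in limma), and its other probe by 1.47 and 1.12. Ampd3, an AMP deaminase isoform of other tissues, was higher by 1.52 and 1.68 through 1 probe (adjusted p 0.000194 and 0.000133 in limma), while its other probe was at 0.47 and -0.15 and was not called.

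**Figure D5:**
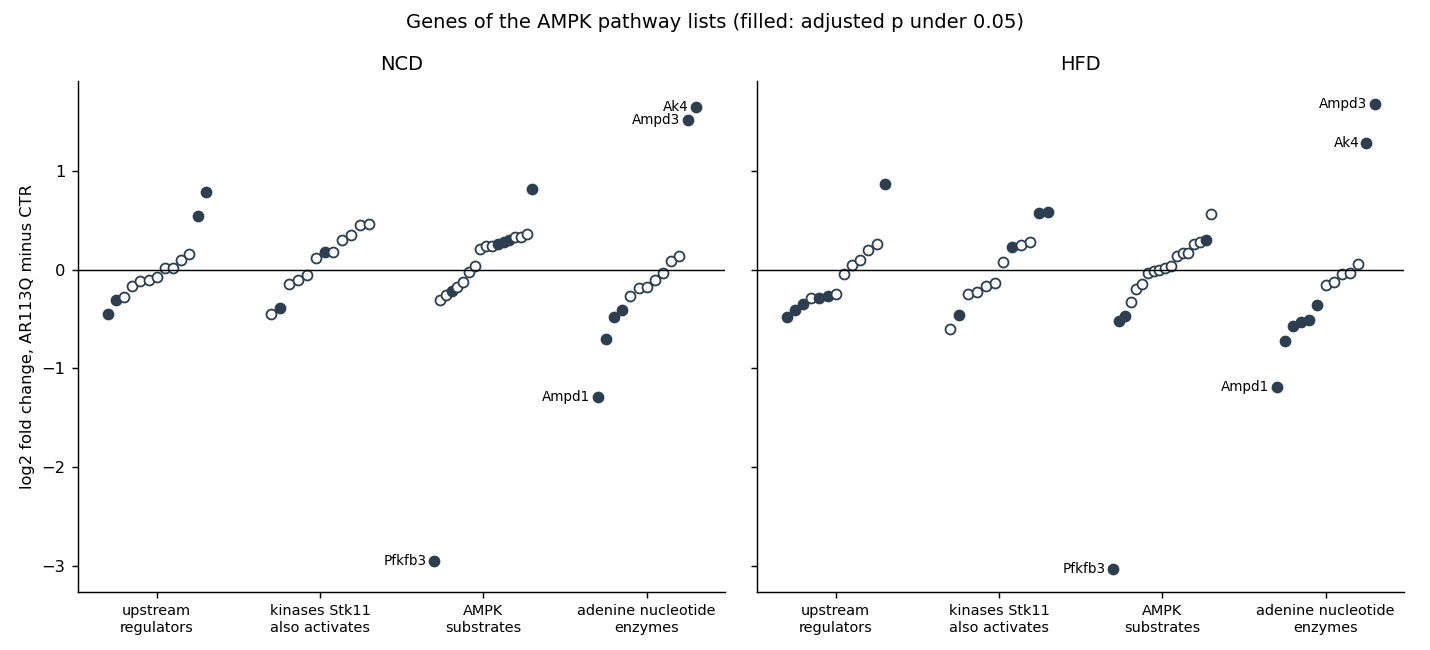
Log2 fold change, AR113Q minus CTR, of the genes in 4 lists around AMPK on NCD (left) and HFD (right), sorted within each list and filled where the adjusted p was under 0.05 in limma. Pfkfb3 stands apart at -2.95 and -3.03, and Ampd1 falls while Ak4 and Ampd3 rise on both diets.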

How the data were processed

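Quadriceps RNA was labelled with Cy3, hybridized to 1-colour Agilent arrays and scanned by the authors. The deposited spot intensities were made with Agilent Feature Extraction 10.7.3.1 (version per the labels), which does not normalize between arrays. Its processed signal was used in the main fit. The authors' series table of log2 values (25944 rows) served as an alternative only. Here, control and outlier spots were left out (85 to 167 outlier spots per array), spots of a probe were averaged, log2 signals were taken relative to the array's 75th percentile, and probes were tested (32026 of 39429) when no fewer than 4 arrays had 0.5 or more of the probe's spots well above background. Precision is limited by the number of arrays. No 2 arrays were duplicates (SD of their difference at least 0.409). The 4 groups were fitted together with limma 3.58.1 in R 4.3.3, and single probes were also tested by exact permutation. The AMPK genes, pathway lists and marker lists were chosen with earlier results of these data known. Named genes were all 8 members, up to 4 called genes with the lowest adjusted p per pathway list and direction, the 5 genes nearest in profile to the 2 members with the lowest adjusted p on NCD, and markers that moved with a result. The fit was tested on simulated data. Alternatives were other normalizations, background correction, filters, slide and replicate blocks, array weights, variance settings, the fold thresholds of the study (1.5 and 0.6) and each array left out. Cry1 was too dim to test, and no probe carried the symbols Adss1 or Adgre1, a macrophage marker. Tables and figures were made with pandas 2.3.3 and matplotlib 3.10.9 in Python 3.11.15.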

Additional observations from a re-analysis of the deposited data

How the results depend on the processing

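Prkaa1 and Prkag3 on NCD and Prkaa1 and Prkab2 on HFD stayed called in every normalization, filter, block and left-out array tried, with Prkaa1 missing only the study's fold thresholds (1.5 and 0.6). The adjusted exact permutation p was 0.0423 for Prkaa1 and Prkab2 on both diets and for Prkag3 and Stk11 on NCD. It was 0.0564 for Prkaa2 on NCD and Stk11 on HFD, 0.0693 for Prkaa2 and Prkag2 on HFD, and 0.169 for Prkag3 on HFD. The number of AMPK genes called on NCD was 5 as reported, 2 with the fold thresholds, 3 with median centring and 2 with normexp background correction, and 4 to 5 with 1 array left out. On HFD it was 6 as reported, 2 with the fold thresholds, 3 with quantile normalization, 2 with median centring, 2 with normexp and 2 when only the groups compared were fitted. With 1 array left out it was 2 to 6, being 2 without CTR-HFD replicate 1 and 3 without CTR-HFD replicate 2 or 4 or AR113Q-HFD replicate 1, 3 or 5. Pathway genes called on NCD were 18, with 6 under the fold thresholds, 9 under median centring and 5 under normexp. On HFD they were 22, with 6 under the fold thresholds, 9 under median centring, 6 under normexp, 13 with only the groups compared, and 14 to 23 with 1 array left out, 14 being without CTR-HFD replicate 4. Calls over all probes changed too, although their number under the fold thresholds is not given here. On NCD they were 5625 as reported, 2388 with median centring and 818 with normexp. On HFD they were 5741 as reported, 5799 with quantile normalization, 2454 with median centring and 933 with normexp. They were 3471 on HFD with only the groups compared and 4603 without CTR-HFD replicate 4. Stk11 on NCD reversed to 0.02 with normexp. That setting moved the median of all probes to -0.55 on NCD, and relative to it Prkaa1 stood at 0.95, Prkaa2 at 0.46, Prkab2 at -0.03, Prkag3 at -0.56 and Stk11 at 0.57, so only the directions of Prkaa1 and Prkag3 were kept by more than 0.1. The cause was not tested. Same-numbered samples deviated together more often than others, with a correlation of deviations over 0.1 in 19 of 27 pairs (median 0.24), against 27 of 108 pairs of different number (median -0.085) and 22 of 27 pairs on the same slide (median 0.27). The labels give the number no meaning, and it was not taken as a pairing. It matched the slide except for CTR-HFD replicate 4, so number and slide can hardly be told apart. The main fit held neither as a block. With the replicate block, 5 AMPK genes were called on NCD and 5 on HFD, where Prkag3 was at -0.79 (adjusted p 0.0574 in limma), and pathway calls were 22 and 26. Calls over all probes with that block were 7209 on NCD and 6988 on HFD.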
